A study of Mus musculus with 8 samples.

Results

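The 41 genes described here encode the machinery that copies DNA in S phase, with a few proteins that serve dividing cells after it. They were taken by symbol from the deposited gene table of 55357 genes, from a list of S-phase and proliferation genes of spermatogonia and preleptotene cells. Transcripts were measured by poly(A) RNA-seq in germ cells of 15-day C57BL/6 male mice. Controls were 4 Mgat2[F/F] pups, which carry floxed alleles of Mgat2 and no Cre, and mutants (cKO) were 4 Mgat2[F/F]:Stra8-iCre pups, in which the same floxed alleles meet a Cre driven by a Stra8 promoter that is active in spermatogonia. MGAT2 is the Golgi GlcNAc-transferase that turns hybrid N-glycans into biantennary complex N-glycans. The comparison asks how germ cell transcripts differ once Mgat2 has been deleted in spermatogonia. Cells of the testis that do not express this Cre keep Mgat2, and the germ cells were a dissociated, filtered tubule suspension with no cell sort.

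In a dividing cell, origins are marked by the origin recognition complex, CDC6 and CDT1 then load the MCM2-7 ring onto DNA, and CDC45 and the GINS complex turn that ring into a working helicase. Polymerase alpha with primase starts each strand, the PCNA clamp, loaded by replication factor C, tethers polymerases delta and epsilon, and FEN1 and DNA ligase I join the Okazaki fragments. In the testis, spermatogonia copy their DNA before each mitosis and preleptotene spermatocytes copy it once more before meiosis, whereas later spermatocytes do not replicate their genome.

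The 8 libraries held between 12584726 and 15907505 expected counts, so that 3 counts, the floor used here, corresponded to 0.189 to 0.238 CPM, counts scaled to a common library total. All 41 genes passed a filter of 1 TPM, a level scaled for transcript length and library total, in any sample, and 20187 genes passed it in all. The targeted gene was lower on average in the mutants, and its values overlapped between genotypes. Mgat2 stood at 69.8, 31.8, 64.3 and 59.8 CPM in control replicates 1 to 4 and at 35.3, 20.1, 37.6 and 16.0 CPM in the cKO replicates. Control replicate 2 thus lay below 2 of the mutants. The log2 fold change, cKO over control, was -1.05 ± 0.36 (SE) with an edgeR adjusted p of 0.47 and an exact two-sided permutation p of 0.0857. DESeq2 called Mgat2, at -1.06 with an adjusted p of 0.025, while the adjusted p lay between 0.063 and 0.81 under the other alternatives. Rpl36al on the opposite strand shares 11.6% of the exon bases of Mgat2. In these libraries, which do not mark strand, reads that lie within that shared stretch cannot be assigned to either gene by strand.

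The leading germ cell marker of each list was present at a high level. The synaptonemal complex gene Sycp3 averaged 442 TPM, Stra8 of differentiating spermatogonia 160 TPM and the pachytene gene Ybx2 436 TPM. Ddit4 of the undifferentiated spermatogonia list averaged 74.5 TPM, and the other genes of that list lay lower, from 8.61 TPM for Ret to 28.5 TPM for Lin28a. Sertoli cell markers were also high, and Clu, the leading one, averaged 4255 TPM. The peritubular marker Acta2 averaged 335 TPM, and the leading markers of Leydig cells (Insl3, 30.9 TPM), immune cells (Csf1r, 4.55 TPM) and endothelial cells (Cdh5, 3.89 TPM) were lower. In such mixtures, fewer cells of a type and less RNA per cell cannot be told apart.

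No replication gene was called between genotypes in fits without a replicate term. Mcm5 and Mcm6 were called with a term for replicate 1, and Mcm6 with a replicate block, as given below. In edgeR's quasi-likelihood F-test, with p adjusted after Benjamini and Hochberg across the whole table, 0 of 41 passed an adjusted p of 0.05, against 8 of 20187 genes in all (0.0396%), and the lowest adjusted p among the 41 was 0.52. One gene, Mcm5, had an unadjusted p under 0.05 and was higher in the mutants, beside 2.62% of all genes higher and 6.28% of all genes lower by that rule. DESeq2 also called 0 of the 41, beside 302 of 20187 genes in all (1.5%). The log2 fold changes were small, from -0.34 for Gins1 to 0.23 for Cdt1 and Tyms, with 30 genes above 0 and 11 below. Their median was 0.08, beside 0.01 over all genes tested. The 95% interval lay within 1.5-fold in either direction for 37 of the 41 genes, all but Mcm2, Gins1, Dut and Tyms. For no gene did every mutant lie on one side of every control, a pattern found upward in 2.47% and downward in 3.03% of all genes.

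**Figure D1:**
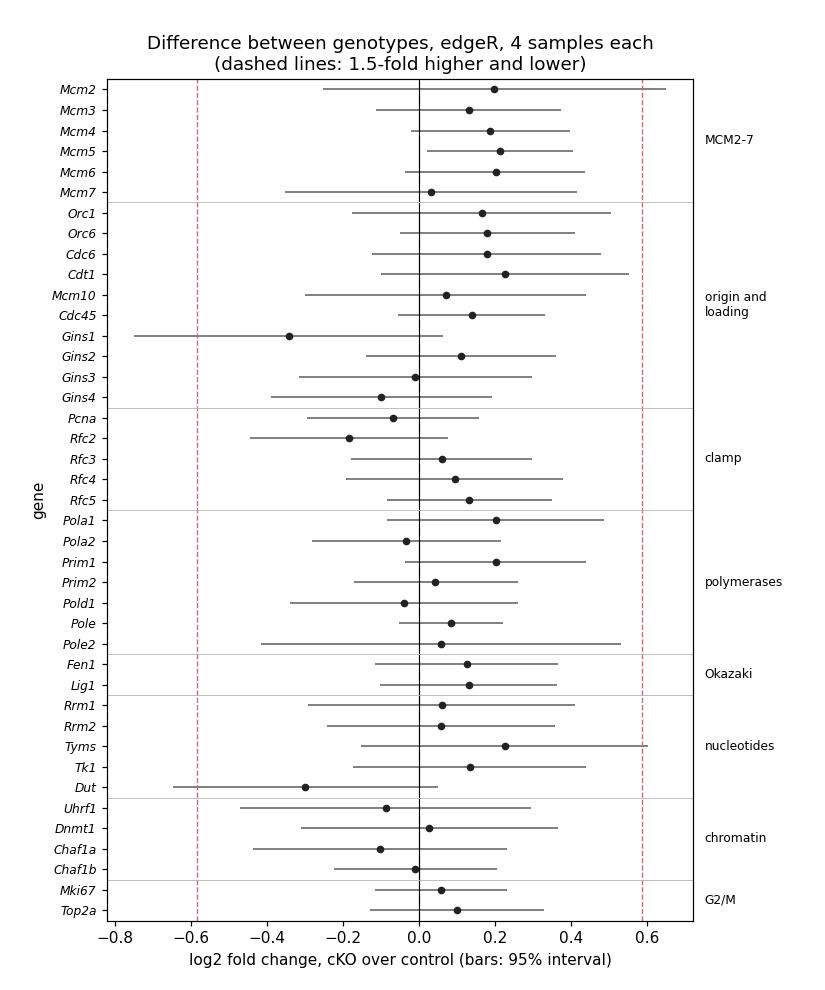
Log2 fold change of each gene, cKO over control, by edgeR from 4 samples per genotype, grouped by role; points are estimates, bars 95% intervals and dashed lines 1.5-fold. Only the interval of Mcm5 leaves out 0, and those of Mcm2, Gins1, Dut and Tyms cross a dashed line.

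Transcript levels, compared between genes per length as TPM, spanned 7.32 to 191 TPM with a median of 40.8. Pcna, the sliding clamp, was highest at 191 TPM on average over the 8 samples, followed by Top2a, the topoisomerase that untangles sister chromatids, at 180 TPM, Mcm7 at 126 and Mcm3 at 117. Pola1, the catalytic subunit of polymerase alpha, was lowest at 7.32 TPM, below the GINS subunit Gins3 at 9.40 TPM and the polymerase epsilon subunit Pole2 at 9.52 TPM. Catalytic and accessory subunits of one enzyme were not at one level: Pole averaged 58.6 TPM and Pole2 9.52, and Pola2 averaged 32.8 TPM and Pola1 7.32. The 6 MCM2-7 genes, whose proteins form one ring with a single copy of each, lay between 39.0 TPM for Mcm4 and 126 TPM for Mcm7. In the order of mean levels, the ranges over 8 samples overlapped for 38 of 40 neighbouring pairs, and those of Cdc6 and Orc1 and of Mcm7 and Top2a did not.

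**Figure D2:**
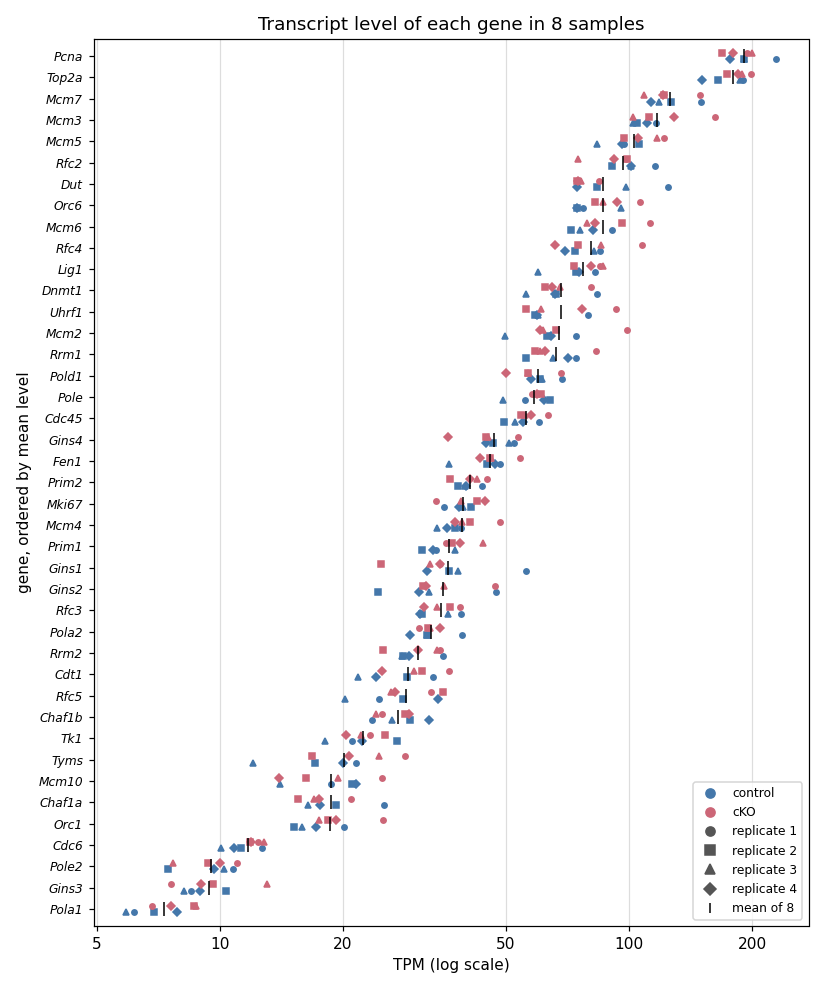
Transcript level in TPM on a log scale for each gene in each of 8 samples, ordered by mean; colours give the genotype, symbols the replicate and black ticks the mean of 8. Levels run from Pola1 at 7.32 TPM to Pcna at 191 TPM, and the control and cKO points overlap for every gene.

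What these genes share in sequence was looked at in their promoters, since many genes of DNA replication are known targets of E2F factors, the regulators that RB family proteins hold in check until S phase. RefSeq promoter windows (build GRCm38.p6) run from 250 bases before to 50 bases after a gene's start and were found for 34 of the 41 genes; those of Mcm4, Gins1, Gins2, Gins4, Rfc2, Prim2 and Pole were not matched. The E2F letters searched were TTTCCCGC, TTTGGCGC and TTTGGCGG on both strands. They were present in 15 of the 34 genes (44.1%), against 4.03% of the 12853 tested genes with a window and 2.39% of all 27025 genes in the table. Median GC content was 58.3% in the member promoters and 59.7% in the promoters of tested genes. The CHR letters TTTGAA, known from genes of G2 and mitosis, were in 20.6% of the 34 genes and 14.9% of tested genes, and CCAAT was in 61.8% and 43.1%. None of these letter strings contains another. Both G2 and mitosis genes, Mki67 and Top2a, held CHR letters and no E2F letters. The 5 nucleotide supply genes held no E2F letters either, whereas 4 of 5 matched MCM2-7 genes and 4 of 5 matched polymerase and primase genes held them. Other genes with the letters, such as Gins3 and Pola2, are left out below. The following 30-base stretches are shown for the MCM2-7 ring, its loading factors and 2 polymerase subunits. They are written 5′ to 3′ on the strand of the gene, from the RefSeq promoters placed by exact match on GRCm39, and capitals mark the E2F letters.
Mcm3: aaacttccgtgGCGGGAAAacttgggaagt
Mcm5: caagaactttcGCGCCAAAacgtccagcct
Mcm6: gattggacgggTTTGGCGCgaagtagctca
Mcm7: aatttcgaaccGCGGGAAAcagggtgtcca
Cdc6: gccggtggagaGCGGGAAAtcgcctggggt
Cdt1: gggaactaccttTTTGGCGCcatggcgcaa
Pola1: gtcatcacaggGCGCCAAAtgcactcccgc
Pole2: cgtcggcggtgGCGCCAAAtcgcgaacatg
The Mcm3 stretch is at chr1:20890499-20890528 on the reverse strand, in an exon, with its letters 20 bases after the start, and Mcm3 holds E2F letters at a further place 39 bases after the start. The Mcm5 stretch is at chr8:75835977-75836006 on the forward strand, upstream of the annotated gene, 149 bases before the start. Mcm6 also holds the letters at 2 places, and the stretch shown is at chr1:128287471-128287500, reverse strand, in an exon. That of Mcm7 is at chr5:138170292-138170321, reverse strand, in an exon, 165 bases before the RefSeq start. Cdc6 has its letters at chr11:98798828-98798857, forward strand, in an intron, and Cdt1 at chr8:123294774-123294803, forward strand, in an exon. The Pola1 stretch is at chrX:92675881-92675910, reverse strand, upstream of the annotated gene, and that of Pole2 at chr12:69274936-69274965, reverse strand, in an exon. The 15 genes with E2F letters had a median log2 fold change between genotypes of 0.06, and the 19 without them 0.10. Other forms of the E2F site were not searched, so genes without these letters may hold one.

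**Figure D3:**
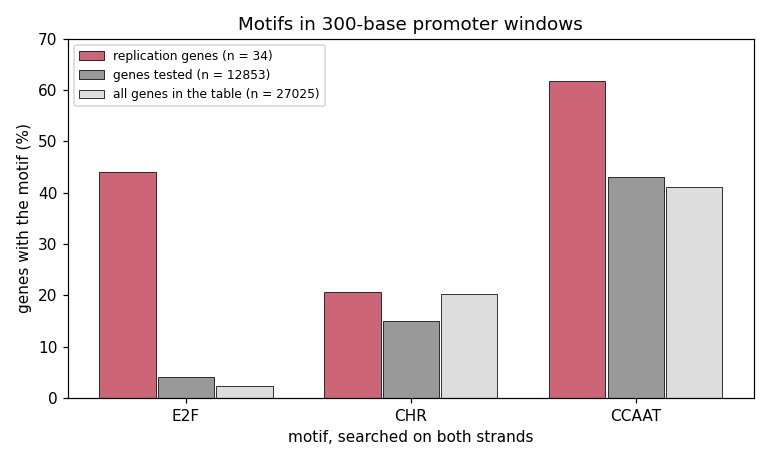
Percent of genes whose 300-base promoter window holds the E2F, CHR or CCAAT letters on either strand, for the 34 matched replication genes, the 12853 tested genes with a window and all 27025 genes in the table. The E2F bars stand at 44.1%, 4.03% and 2.39%, and those for CHR at 20.6%, 14.9% and 20.2%.

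All 6 MCM2-7 helicase genes had estimates above 0, with a median log2 fold change of 0.19, and 0 of 6 were called in the fit without a term for replicate 1. On the log2(TPM + 1) scale Mcm7 turned to -0.02. Mcm5 was at 151, 150, 128 and 139 CPM in control replicates 1 to 4 and at 186, 145, 171 and 157 CPM in the cKO replicates. The second mutant lay below the first and second controls. The log2 fold change was 0.21 ± 0.09 (SE, 95% interval 0.02 to 0.41, edgeR adjusted p = 0.52). Mcm6, another subunit of the ring, was at 152, 121, 124 and 131 CPM in controls and 186, 146, 139 and 136 CPM in mutants. Only the first control lay among the mutant values. Its log2 fold change was 0.20 ± 0.11 (SE, edgeR adjusted p = 0.62).

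Mcm4 was at 82.9, 76.3, 70.3 and 73.6 CPM in controls and 102, 84.1, 82.2 and 76.9 CPM in mutants, with a log2 fold change of 0.19 ± 0.10 (SE, edgeR adjusted p = 0.60). Mcm2 was at 148, 118, 97.7 and 120 CPM in controls and 197, 123, 120 and 115 CPM in mutants. One mutant sample, replicate 1, thus stood far above the other three mutants, which lay among the controls, and the log2 fold change of 0.20 had an SE of 0.20. Mcm3 was at 157, 140, 131 and 142 CPM in controls and 196, 134, 148 and 146 CPM in mutants (log2 fold change 0.13 ± 0.11). Mcm7 was at 204, 145, 145 and 142 CPM in controls and 216, 147, 143 and 144 CPM in mutants, with a log2 fold change of 0.03 ± 0.17 (SE). In Mcm7 the first replicate of either genotype stood apart and the other 6 samples lay within a few CPM of each other. Its exons share 6.1% of their bases with Cops6 and 6.2% with Ap4m1 on the opposite strand.

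Among the 10 genes of origin recognition, helicase loading and activation, 7 estimates were above 0 and 3 below, 0 were called, and the median log2 fold change was 0.12. Cdt1, which brings the MCM ring to origins, was at 37.1, 31.7, 26.3 and 26.3 CPM in controls and 42.9, 35.9, 35.5 and 27.7 CPM in mutants (0.23 ± 0.15, SE, edgeR adjusted p = 0.67). Gins1, a GINS subunit, was at 27.8, 17.8, 19.4 and 15.3 CPM in controls and 17.8, 12.5, 16.6 and 16.4 CPM in mutants. That was the lowest estimate of the 41, -0.34 ± 0.19 (SE, edgeR adjusted p = 0.62), and it leaned on control replicate 1, without which it was -0.15. Orc6, an origin recognition subunit and the most abundant of this group, was at 45.8, 41.6, 55.4 and 44.0 CPM in controls and 58.4, 49.0, 50.6 and 53.5 CPM in mutants. Gins3 was at 11.7, 13.03, 11.3 and 12.4 CPM in controls and 11.2, 10.8, 13.5 and 12.6 CPM in mutants, a log2 fold change of -0.01 ± 0.14 (SE). The other members here are Orc1, Cdc6, the loading partner of CDT1, Mcm10, which helps activate the helicase, Cdc45, Gins2 and Gins4, with log2 fold changes from -0.10 for Gins4 to 0.18 for Cdc6. Gins2 shares 67.3% of its exon bases with Gse1 on the opposite strand, so its value is uncertain.

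The clamp and its loader held 3 estimates above 0 and 2 below, with a median log2 fold change of 0.06 and 0 of 5 called. Pcna was at 177, 138, 142 and 129 CPM in controls and 148, 127, 154 and 130 CPM in mutants, a log2 fold change of -0.07 ± 0.10 (SE, 95% interval -0.30 to 0.16). The genotypes overlapped throughout, and the pseudogene Pcna-ps2 was at 1.04 TPM. Rfc2, a loader subunit, was at 81.1, 56.9, 66.7 and 64.5 CPM in controls and 70.1, 56.95, 56.3 and 53.4 CPM in mutants (-0.19 ± 0.12, SE, edgeR adjusted p = 0.67). Rfc5 was at 32.1, 33.5, 31.2 and 34.8 CPM in controls and 41.6, 34.0, 34.6 and 34.0 CPM in mutants (0.13 ± 0.10, SE). Only cKO replicate 1 of Rfc5 exceeded the control range. Rfc3 and Rfc4, the remaining loader subunits, had log2 fold changes of 0.06 and 0.09. Exon bases shared with genes on the opposite strand came to 41.4% in Rfc5 (Wsb2), 24.3% in Rfc2 (Lat2) and 20.8% in Pcna (AV099323). In Rfc4 they came to 16.5% with Eif4a2, itself at 394 TPM, and 12.5% with 6330408M09Rik. Wsb2 was at 147 TPM and Rfc5 at 28.5 TPM, so the value of Rfc5 is uncertain.

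Of the 7 polymerase and primase genes, 5 estimates lay above 0 and 2 below (median log2 fold change 0.06, 0 called). Pola1 was at 20.6, 20.6, 19.2 and 24.3 CPM in controls and 19.6, 27.1, 26.4 and 24.2 CPM in mutants, with a log2 fold change of 0.20 ± 0.13 (SE, edgeR adjusted p = 0.67). Prim1, the catalytic primase subunit, was at 28.9, 25.7, 30.7 and 27.2 CPM in controls and 30.1, 30.1, 37.6 and 31.7 CPM in mutants (0.20 ± 0.11, SE, edgeR adjusted p = 0.62). In Prim1 only control replicate 3 reached into the mutant range. Pold1, the catalytic subunit of polymerase delta and the most abundant of the group, was at 128, 101, 93.0 and 103 CPM in controls and 132, 92.7, 99.4 and 89.7 CPM in mutants (-0.04 ± 0.14, SE). The other members are Pola2 and Prim2, the regulatory subunits of polymerase alpha and primase, and the epsilon subunits Pole and Pole2, with log2 fold changes from -0.03 for Pola2 to 0.08 for Pole. Pole had the smallest spread within genotypes of the 41, an SD of 0.055 on the log2 CPM scale, and Mcm2 the largest at 0.31.

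Both genes of Okazaki fragment maturation had estimates above 0. Lig1, DNA ligase I, was at 138, 122, 98.7 and 120 CPM in controls and 144, 113, 142 and 125 CPM in mutants (0.13 ± 0.11, SE). Fen1, the flap endonuclease, was at 60.8, 54.5, 45.4 and 56.1 CPM in controls and 68.6, 57.2, 57.8 and 52.7 CPM in mutants (0.13 ± 0.11, SE). The genotypes overlapped in both. On the opposite strand, Gm10143, at 2.35 TPM, shares 59.0% of the exon bases of Fen1, and Tmem258, at 130 TPM, shares 7.0%.

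Nucleotide supply had 4 estimates above 0 and 1 below (median log2 fold change 0.06, 0 of 5 called). Tyms, thymidylate synthase, was at 15.3, 13.2, 9.98 and 12.2 CPM in controls and 18.6, 13.9, 14.2 and 12.5 CPM in mutants (0.23 ± 0.17, SE, edgeR adjusted p = 0.72). Dut, the dUTPase that keeps uracil out of DNA, was at 75.8, 47.8, 60.6 and 44.6 CPM in controls and 53.9, 44.8, 42.1 and 45.2 CPM in mutants. Its estimate was -0.30 ± 0.16 (SE, edgeR adjusted p = 0.62), with controls 1 and 3 above the rest and controls 2 and 4 among the mutants. The ribonucleotide reductase subunits Rrm1 and Rrm2 both had log2 fold changes of 0.06, and the thymidine kinase Tk1 had 0.13. The opposite strand of Rrm2 holds Gm59512 over 43.3% of its exon bases.

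Chromatin copying was the only one of the 8 role groups with a median below 0 (-0.05, 1 estimate above 0 and 3 below, 0 of 4 called). Dnmt1, the maintenance DNA methyltransferase, was at 278, 202, 179 and 199 CPM in controls and 269, 191, 212 and 201 CPM in mutants (0.03 ± 0.15, SE). Chaf1a, the large subunit of chromatin assembly factor 1, was at 91.3, 62.0, 58.1 and 60.7 CPM in controls and 75.6, 55.2, 61.6 and 60.9 CPM in mutants (-0.10 ± 0.15, SE). In both genes replicate 1 topped its genotype. Uhrf1, which guides DNMT1 to replicated DNA, and Chaf1b had log2 fold changes of -0.09 and -0.01. Ubxn6 on the opposite strand shares 51.0% of the exon bases of Chaf1a. Ubxn6 was at 96.9 TPM and Chaf1a at 18.7 TPM, so the value of Chaf1a is uncertain. Of the G2 and mitosis genes, Top2a was at 523, 418, 494 and 399 CPM in controls and 572, 441, 487 and 464 CPM in mutants (0.10 ± 0.11, SE). Mki67, the Ki-67 proliferation antigen, was at 229, 256, 250 and 233 CPM in controls and 218, 270, 250 and 269 CPM in mutants (0.06 ± 0.08, SE).

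The larger difference lay between samples of a genotype. Replicate 1 of one genotype or the other was the highest of all 8 samples for 35 of the 41 genes (85.4%, against 37.9% of all genes tested), and it was the highest of its genotype in both genotypes for 29 of 41 (70.7%, against 22.2%). The median gap of replicate 1 over the mean of replicates 2 to 4 was 0.28 log2 units in control and 0.29 in cKO, beside -0.01 in both over all genes. These shares were computed after the values had been seen. In control the widest gaps were those of Gins1 (0.66), Chaf1a (0.60), Dut (0.58) and Uhrf1 (0.56), and in cKO those of Mcm2 (0.72), Mcm10 (0.68), Mcm7 (0.57) and Orc1 (0.53). Gins3, Pola1, Prim1, Chaf1b and Mki67 were highest in replicate 1 of neither genotype. Ki-67 transcripts thus ran the other way, with gaps of -0.10 in control and -0.26 in cKO, while Top2a had 0.26 and 0.30.

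**Figure D4:**
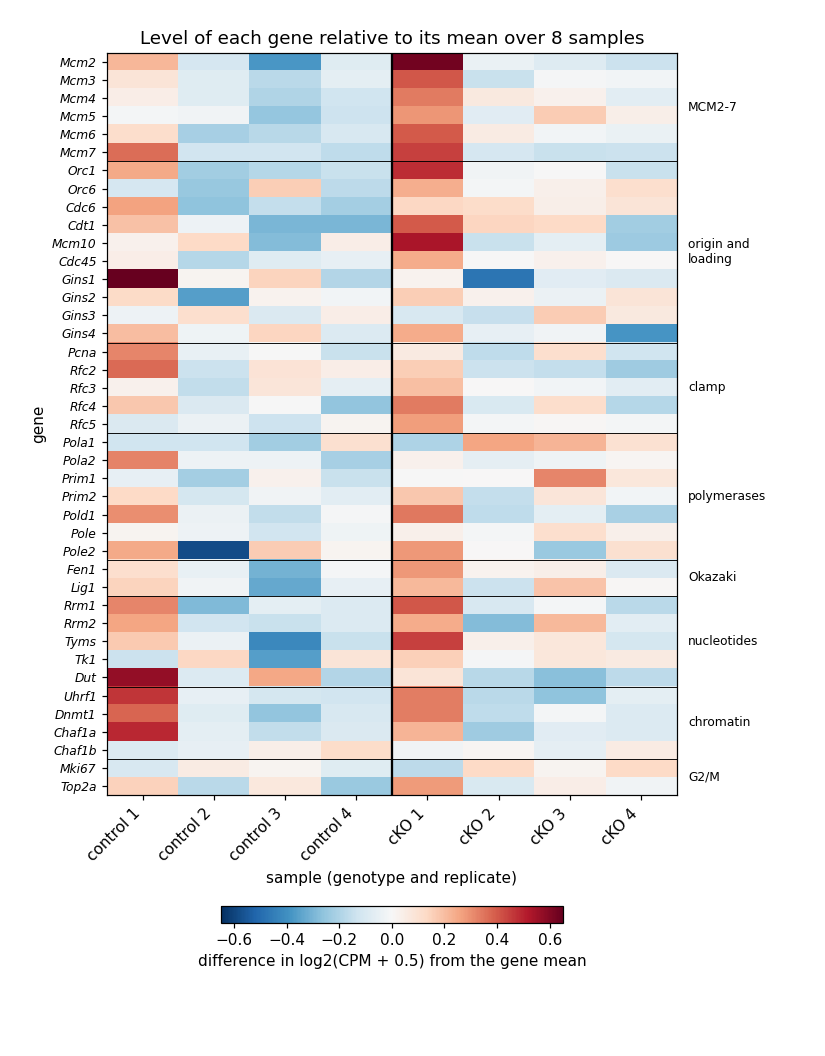
Level of each gene in each sample as the difference in log2(CPM + 0.5) from that gene's mean over 8 samples, red above and blue below, with rows grouped by role and the line dividing control from cKO. The columns of control 1 and cKO 1 are mostly red, with means of 0.17 and 0.23 over the 41 genes. Gins3, Pola1, Chaf1b and Mki67 are blue in both, and Prim1 is blue in control 1 and near its mean in cKO 1.

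Summed over the 41 genes, transcripts reached 2550, 2194, 2173 and 2178 TPM in control replicates 1 to 4 and 2676, 2214, 2277 and 2255 TPM in the cKO replicates. Replicate 1 was the highest of each genotype, and the genotype means of 2274 ± 184 and 2355 ± 216 TPM (SD, n = 4) differed by less than either SD. Marker sums moved with replicate 1 as well. The 6 differentiating spermatogonia markers summed to 443 TPM in control replicate 1 and 489 in cKO replicate 1, and to between 319 and 360 in the others. In control replicate 1, Dmrtb1 stood at 179 TPM against 43.3 to 50.4 in the other controls. Kit was highest there too (36.9 TPM), Sohlh1 and Dnmt3b lay among the controls, and Stra8 (131 TPM) and Sohlh2 (37.7 TPM) were lowest. In cKO replicate 1, every marker of that list but Stra8 was the highest of the mutants. The sum of the 8 leptotene and zygotene markers was lowest in replicate 1, at 819 and 864 TPM against 1017 to 1362 in the others. Rec8 in control and Hormad1 in cKO were not lowest there. The sum of the 8 Sertoli cell markers was also lowest there, at 6168 and 6535 TPM against 6949 to 7692. Amh and Rhox5 were not lowest in control replicate 1, and Rhox5 was the highest of the mutants in cKO replicate 1 (55.1 TPM). Summed pachytene markers were highest there within each genotype, at 2961 TPM in control replicate 1 against 956 to 1540 in the other controls. In cKO replicate 1 they were at 977 TPM against 496 to 521. Adad2 and Spag6 were not highest in control replicate 1. The part of these marker differences in the replicate 1 levels of the replication genes was not tested.

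**Figure D5:**
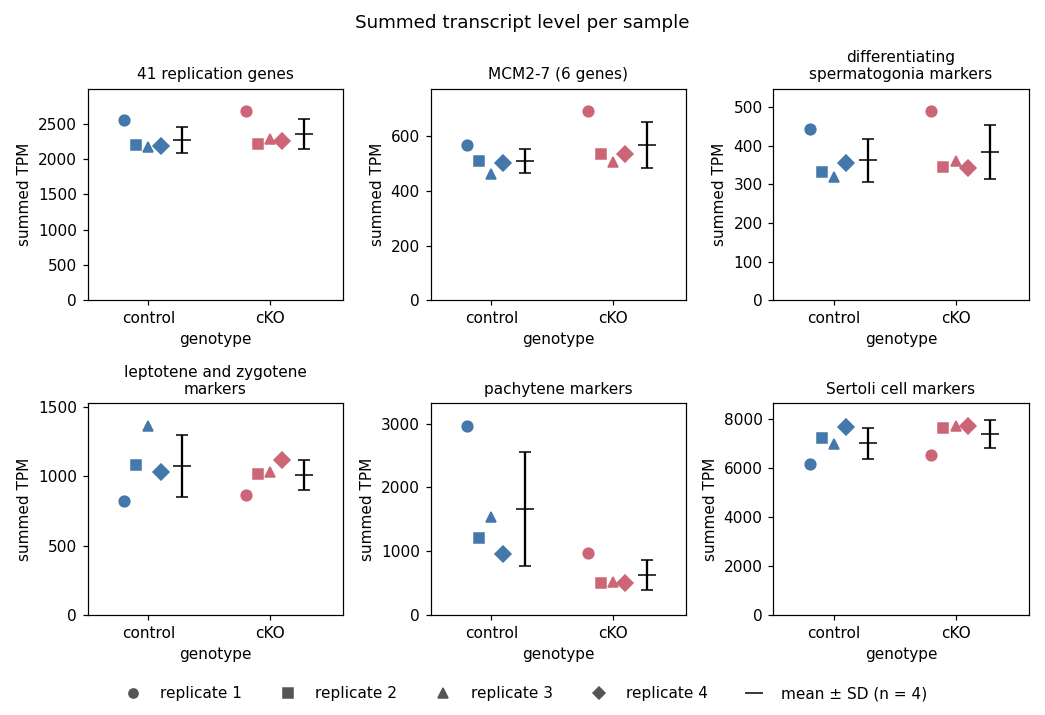
Summed TPM per sample for the 41 replication genes, the 6 MCM2-7 genes and markers of 4 cell types; symbols mark the replicate and black bars the mean ± SD of 4 samples. Replicate 1 (circles) is the highest of its genotype for the replication genes, MCM2-7, differentiating spermatogonia and pachytene markers. It is the lowest for leptotene and zygotene and Sertoli cell markers. Of the differentiating spermatogonia markers, Dmrtb1 was at 179 TPM in control replicate 1, and Stra8 and Sohlh2 were the lowest of the controls there.

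Between genotypes, the pachytene markers had a median log2 fold change of -1.23. Of these 8 genes 1 was called (Adad2, -0.99, edgeR adjusted p = 0.035), beside 0.0396% of all genes tested. The paper had already named Adad2 and Piwil1 of this list among its top lower genes in these same samples. The differentiating spermatogonia markers had a median of 0.17 and the Sertoli cell markers 0.08, with 0 called in either. The part of these marker differences in the small upward median of the replication genes was not tested.

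Because replicate 1 stood apart, the comparison was repeated in other ways after the data had been seen. With a term for replicate 1 in the edgeR fit, 2 of 41 genes were called and higher in cKO, Mcm5 (log2 fold change 0.21 ± 0.06, SE, adjusted p = 0.035) and Mcm6 (0.20 ± 0.06, SE, adjusted p = 0.028), beside 7.54% of all genes called. Their differences kept the size of the fit without that term and came with smaller errors. Dut came next among the 41, at -0.29 ± 0.09 with an adjusted p of 0.054. With replicates 2 to 4 alone, 0 of 41 were called, beside 4.32% of all genes, and Mcm5 and Mcm6 had adjusted p of 0.17 and 0.19 with log2 fold changes of 0.18 and 0.16. After normalization on those 6 samples alone, 7 of the 41 genes did not overlap between genotypes, beside 18.7% of all genes, both directions counted. For all 7, Mcm4, Mcm6, Orc1, Cdc6, Cdc45, Pola1 and Pole, every mutant lay above every control. The share of all genes was not split by direction. Leaving out cKO replicate 1 alone brought the median log2 fold change of the 41 genes to 0.00, with 21 above and 20 below, and leaving out control replicate 1 alone raised it to 0.17. With replicate 1 of both genotypes left out the median was 0.07, with 32 above 0 and 9 below, and with the replicate 1 term it was 0.08. Leaving out cKO replicate 2 or cKO replicate 4 alone raised it to 0.135 and 0.127. The median over all 41 genes therefore moved with single samples, most with replicate 1 of either genotype.

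Other genes of the same processes gave 0 calls in the same edgeR test. Of 32 further replication fork and origin genes, 0 were called, 16 estimates lay above 0 and 16 below, and the median log2 fold change was 0.00. The ends of that list were Pold4, a small polymerase delta subunit, at 0.44 ± 0.24 (SE, adjusted p = 0.62) and Rnaseh2a, a subunit of the RNase that removes ribonucleotides from DNA, at -0.47 ± 0.40 (SE, adjusted p = 0.76). Of the MCM relatives outside the ring, Mcm8, which acts in recombination, was at 0.23 ± 0.08 (SE, adjusted p = 0.45), Mcm9 at -0.12 and the meiotic gene Mcmdc2 at -0.48 ± 0.21 (SE, adjusted p = 0.54).

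The 24 regulators of the G1/S step had a median log2 fold change of 0.09 with 0 called. Rbl1, the RB relative p107, had the lowest p of that list, at -0.34 ± 0.11 (SE, unadjusted p = 0.0069, adjusted p = 0.40). Every mutant lay below every control for Rbl1 and above every control for its relative Rbl2 and the cyclin-dependent kinases Cdk4 and Cdk6, beside 3.03% and 2.47% of all genes. The estimates ran from -0.98 ± 0.41 (SE, adjusted p = 0.56) for Cdkn2c, an inhibitor of CDK4 and CDK6, to 0.31 ± 0.11 (SE, adjusted p = 0.44) for E2f3. The 22 further G2 and mitosis genes had a median of 0.04 with 0 called, from the cyclin Ccnb2 at -0.44 ± 0.17 (SE, adjusted p = 0.48) to the cyclin Ccna2 at 0.29 ± 0.14 (SE, adjusted p = 0.59). The 10 further nucleotide supply genes had a median of 0.09 with 0 called, from the thymidylate kinase Dtymk at -0.21 ± 0.08 (SE, adjusted p = 0.48) to the deoxycytidine kinase Dck at 0.23 ± 0.13 (SE, adjusted p = 0.64). At an unadjusted p under 0.05, the 5 lists held 1 lower and 2 higher gene for the fork and origin, 1 lower and 1 higher MCM relative, 1 lower and 2 higher G1/S regulators, 1 lower G2 and mitosis gene and 1 lower nucleotide supply gene, beside 6.28% of all genes lower and 2.62% higher.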

How the data were processed

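RNA was measured in germ cells of 4 Mgat2[F/F] control and 4 Mgat2[F/F]:Stra8-iCre cKO pups, grouped by their titles. According to the methods and the submitters' notes, reads of non-stranded poly(A) libraries were aligned to mm39 with STAR 2.7.9a. The authors deposited RSEM 1.3.3 expected counts per gene and TPM values (transcripts scaled for length and library total). Expected counts were rounded here (6.37% of the values of all 55357 genes were not whole, with 25863 genes at 0 in every sample). Genes below 1 TPM in every sample were dropped. TMM normalization and robust quasi-likelihood F-tests used edgeR 4.0.16 (R 4.3.3) with Benjamini-Hochberg adjustment over 20187 genes. The SE is the log2 fold change over the square root of F. CPM values are TMM-scaled. Tests were tried on simulated data. Alternatives used DESeq2 1.42.0, limma 3.58.1 on log2(TPM + 1), other scalings and filters, a replicate block, and left-out samples.

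Members and lists were chosen with earlier results of these data known. Values in every sample are given for Mgat2, MCM2-7, members called, apart or with p under 0.05, and each role group's extremes of fold change and TPM. Pathway list genes are named if called or with p under 0.01, otherwise the 2 extremes, and markers by highest TPM. Mcm9, Rbl2, Cdk4, Cdk6, Cdkn2c, E2f3 and the genes of the replicate 1 and promoter paragraphs were named after their values were seen. With 1 sample per pup, p-values measure the spread between these samples, as do the 95% intervals of fold changes, whereas floors cover counting error only. Positions and exon overlaps are from GENCODE on GRCm39. Protein sequences were not analysed here.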

Additional observations from a re-analysis of the deposited data

Results flagged for a closer look

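Within each genotype, a sample was singled out when its gap to the nearest of the other 3 passed Dixon's 95% critical value as a share of the group's range, which chance does in about 1 in 20 groups. Of 130 groups looked at, 19 met this, and all 19 were replicate 1. Some summed groups hold the same genes as the single-gene groups, and all groups use the same 8 samples. The rate of 1 in 20 is therefore no measure for the 19 of 130.

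Among the 41 genes, control replicate 1 was far above the other controls for Mcm7 (204 CPM), Orc1 (33.1 CPM), Rrm2 (43.3 CPM), Uhrf1 (160 CPM) and Chaf1a (91.3 CPM). The other controls reached at most 145, 25.1, 34.1, 111 and 62.0 CPM for these genes. The cKO replicate 1 was far above the other mutants for Mcm2 (197 CPM), Mcm7 (216 CPM), Cdc45 (70.2 CPM) and Rfc5 (41.6 CPM), beside at most 123, 147, 60.4 and 34.6 CPM.

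In summed TPM, the 41 genes together were far higher in replicate 1 of control (2550) and of cKO (2676). The MCM2-7 genes were so in cKO (692), the nucleotide supply members in control (277) and the further replication fork and origin genes in control (1995). Markers of differentiating spermatogonia (489) and of pachytene spermatocytes (977) were far higher in cKO replicate 1, and Sertoli cell markers far lower there (6535). Peritubular (361) and endothelial (4.88) markers were far lower in control replicate 1.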

How the results depend on the processing

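Members called stayed at 0 of 41 with DESeq2 size factors, library totals, no filter, filterByExpr, DESeq2, limma and each sample left out, and the median log2 fold change ran from 0.00 to 0.17 over left-out samples. Of all genes, 8 were called in the edgeR fit, 17 with library totals, 35 with no filter, 0 with filterByExpr (1665 at an unadjusted p under 0.05), 302 with DESeq2, 0 with limma on log2(TPM + 1) (1796 unadjusted) and 0 to 32 with a sample left out. They were 845 on replicates 2 to 4 and 1522 with a term for replicate 1, where 2 members were called. The replicate block called 1464 genes and 1 member, Mcm6 (adjusted p 0.043). Residuals of same-numbered samples correlated at 0.65, 0.24, 0.066 and 0.28, and a sample matched best with its own number only for number 1; means were 0.31 for the same number and -0.083 for others. One pair was under 0.1 and the labels give the numbers no meaning, so they were not treated as pairs. Members with separate genotypes were 0 with all samples, beside 5.5% of all genes. They were 0 to 5 with a sample left out, beside 7.57% to 15.3% of all genes. The 5 came without control replicate 1, where the share of all genes was 8.49%. On replicates 2 to 4 they were 7, beside 18.7%. Some log2 fold changes changed sign, none of them called; the cause was not tested. On log2(TPM + 1) these were Mcm7 -0.022, Mcm10 -0.026, Gins3 0.094, Pole2 -0.002, Rrm1 -0.014 and Uhrf1 0.13, and on replicates 2 to 4 Mcm10 -0.12, Gins3 0.01, Pcna 0.004 and Pola2 0.07. With a sample left out, the ranges were Mcm2 -0.017 to 0.31, Mcm7 -0.14 to 0.18, Mcm10 -0.14 to 0.16, Gins3 -0.071 to 0.037, Gins4 -0.21 to 0.003, Pcna -0.12 to 0.037, Rfc3 -0.002 to 0.10, Rfc4 -0.016 to 0.17, Pola2 -0.10 to 0.082, Prim2 -0.011 to 0.10, Pold1 -0.18 to 0.064, Pole2 -0.10 to 0.16, Rrm1 -0.082 to 0.19, Rrm2 -0.017 to 0.16, Uhrf1 -0.23 to 0.076, Dnmt1 -0.09 to 0.18, Chaf1a -0.20 to 0.072 and Chaf1b -0.041 to 0.035. The lowest value of any member, 5.19 CPM for Pole2, lay above the highest floor of 0.238 CPM.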
